A study of Mus musculus with 6 samples.

Results

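The genes described here are 9 mouse myelin genes, Mbp, Mobp, Mal, Mag, Mog, Cnp, Opalin, Cldn11 and Ugt8a, chosen by symbol out of 56748 genes in a table of brain expression. Each symbol matched 1 row of the table, and all 9 were among the 16162 genes tested. RNA came from homogenized brain, taken 28 days after implantation in 3 libraries and 3 days after it in 3 libraries. All mice, at both times, had been implanted with MCF10DCIS CD63-NLuc cells, human breast cells that model ductal carcinoma in situ and carried the vesicle protein CD63 joined to NanoLuc, a light-producing enzyme. The labels give no strain, age, brain region or implantation site. None of the 6 libraries was without an implant, so day 3 is the earlier time point and not an untreated baseline. The sample titles carry a different number for each library, with no stated meaning. The labels do not state whether each library is a different animal, and p-values therefore measure only the spread between these libraries.

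Myelin is the stack of membrane that oligodendrocytes wrap around axons in the brain, and it lets nerve impulses travel fast. Its compact layers are held together by small basic and proteolipid proteins, its edges and inner face carry adhesion and scaffold proteins, and its membrane is rich in galactolipids. These transcripts are abundant in white matter, brainstem and spinal cord and scarcer in cortex, striatum and olfactory bulb, and the factors SOX10, OLIG2 and MYRF switch them on as precursors mature.

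Because the members share these regulators, the 250 bases before the most upstream RefSeq start site are shown for 4 of them: Mobp, whose groups stood apart, Opalin, whose groups overlapped, and Mag and Cnp, the members that held both motifs below. Capitals mark the letters ACAAAG, a core of SOX binding sites, and CTGGCAC or CTGGTAC, forms of the site reported for MYRF, on either strand. The sequences are from RefSeq on build GRCm38.p6, an older build than the GRCm39 of the deposited table, so these positions are not positions in the authors' build. Mobp lies at chr9:120149492-120149741 on the plus strand, Opalin at chr19:41077114-41077363 on the minus strand, Mag at chr7:30914923-30915172 on the minus strand and Cnp at chr11:100574689-100574938 on the plus strand.
Mobp: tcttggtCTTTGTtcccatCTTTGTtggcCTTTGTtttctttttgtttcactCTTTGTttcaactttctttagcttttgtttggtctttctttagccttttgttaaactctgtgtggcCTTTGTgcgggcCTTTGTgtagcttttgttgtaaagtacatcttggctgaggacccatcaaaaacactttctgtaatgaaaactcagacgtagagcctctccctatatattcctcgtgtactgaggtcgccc
Opalin: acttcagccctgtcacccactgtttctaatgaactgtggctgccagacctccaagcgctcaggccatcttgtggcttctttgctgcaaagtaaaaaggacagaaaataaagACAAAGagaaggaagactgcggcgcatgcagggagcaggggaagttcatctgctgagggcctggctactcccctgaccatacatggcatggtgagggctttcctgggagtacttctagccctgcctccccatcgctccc
Mag: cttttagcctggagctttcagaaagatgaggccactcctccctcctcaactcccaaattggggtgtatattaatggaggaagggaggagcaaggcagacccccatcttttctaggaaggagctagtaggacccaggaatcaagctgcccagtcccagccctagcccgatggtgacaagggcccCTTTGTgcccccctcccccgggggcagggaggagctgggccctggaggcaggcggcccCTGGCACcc
Cnp: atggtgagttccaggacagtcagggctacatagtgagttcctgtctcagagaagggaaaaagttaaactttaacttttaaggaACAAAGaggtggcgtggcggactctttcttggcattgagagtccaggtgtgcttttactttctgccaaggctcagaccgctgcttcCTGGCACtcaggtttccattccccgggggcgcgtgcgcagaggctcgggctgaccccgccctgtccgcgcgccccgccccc
Of the 8 members with a promoter sequence, 4 held ACAAAG, which stood in 16.5% of all 32851 promoter windows of the same length. Mobp held it 6 times, all on the strand opposite to the gene. CTGGCAC stood in 2 of the 8, Mag and Cnp, and in 4.19% of all windows, and CTGGTAC in 1, Mog, and in 1.83% of all windows. Opalin held 1 ACAAAG match and neither MYRF form. The E-box CAGATG, a pattern that OLIG and related factors can bind, stood in 1 of the 8, Opalin, and in 14.4% of all windows. The SOX form ACAATG (10.7% of all windows), the E-box CAGCTG (13.0%) and TATAAA (12.4%) stood in 0 of the 8. The matches describe letters in this window only.

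The myelin transcripts were lower at day 28 for 8 of the 9 genes, with every day 28 library below every day 3 library, and Opalin was the exception. None of the 9 passed the threshold of 0.05 on limma's adjusted p over all genes tested (0 of 9, against 0.192% of all genes in either direction, 0.124% lower and 0.0681% higher). At an unadjusted limma p under 0.05, 8 of 9 were lower and 0 higher, against 6.39% and 6.98% of all genes tested. Limma with voom weights on recovered reads called 0 of all 16162 genes tested after adjustment, so its 0 of 9 is not particular to the members. Groups did not overlap, with day 28 lower, for 8 of 9 members and with day 28 higher for 0, against 9.21% and 9.71% of all genes tested. Values below are normalized counts, that is, reads divided by the size factor of the library, and differences are log2 of day 28 over day 3 on log2(normalized count + 1). In whole tissue, fewer oligodendrocytes and less myelin RNA per oligodendrocyte cannot be told apart.

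The compact myelin genes come first. Mbp encodes myelin basic protein, which presses the cytoplasmic faces of the membrane together. Mbp had 36215, 43988 and 44580 normalized counts in the day 28 libraries, against 51674, 66133 and 60243 in the day 3 libraries. All day 28 values lay below the lowest day 3 value, and the log2 difference was -0.51 (SE 0.13, limma adjusted p = 0.159). Mobp, a second small basic protein of the compact layers, had 11619, 13749 and 15176 normalized counts at day 28, against 19704, 21645 and 21057 at day 3. The gap was wider than for Mbp, since the highest day 28 library stood at 0.770 of the lowest day 3 library, and the log2 difference was -0.63 (SE 0.11, limma adjusted p = 0.0762). Mal, a proteolipid of membrane sorting in oligodendrocytes, had 2726, 3438 and 3426 normalized counts at day 28, against 3850, 4618 and 5159 at day 3. Its groups also stood apart, with a log2 difference of -0.50 (SE 0.13, limma adjusted p = 0.161).

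The surface and scaffold genes split into Mag, Mog and Cnp on one side and Opalin on the other. Mag encodes a sialic acid-binding adhesion protein of the membrane that faces the axon. Mag had 1787, 2262 and 2223 normalized counts at day 28, against 2920, 3085 and 2643 at day 3, with a log2 difference of -0.47 (SE 0.11, limma adjusted p = 0.138). Mog, an immunoglobulin-domain protein of the outermost layer and a known autoantigen, had 668, 874 and 926 normalized counts at day 28, against 1156, 1339 and 1407 at day 3. It had the lowest log2 difference of the 9, -0.67 (SE 0.14, limma adjusted p = 0.106), and its day 28 mean was 0.633 of its day 3 mean. Cnp encodes an enzyme of the cytoplasm-filled channels that also keeps the layers from closing too early. Cnp had 3463, 4347 and 3884 normalized counts at day 28, against 4852, 5435 and 4878 at day 3, a log2 difference of -0.38 (SE 0.10, limma adjusted p = 0.169). In GENCODE M21, 154 exonic bases of Cnp lie under Dnajc7 on the other strand and 79 of Mobp under a noncoding transcript on the same strand, so reads there are uncertain where the authors' counting could not split them.

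Opalin, a sialylated membrane protein of oligodendrocytes, had 178, 291 and 282 normalized counts at day 28, against 203, 250 and 183 at day 3. The groups overlapped, and the log2 difference was 0.22 (SE 0.22, limma adjusted p = 0.721), with an unadjusted 95% interval from -0.29 to 0.72. Leaving out day 28 replicates 1, 2 and 3 in turn gave log2 differences of 0.44, 0.09 and 0.11, and leaving out day 3 replicates 2 and 3 in turn gave 0.34 and 0.12. Day 28 replicate 1 was the lowest of all 6 libraries for Opalin as it was for every other member. Relative to the mean of the other 8 members, the log2 deviation of Opalin was 0.14, 0.50 and 0.48 at day 28, against -0.30, -0.21 and -0.61 at day 3. That difference was higher in each day 28 library than in any day 3 library; it was singled out after the values were seen and is given with no test. Opalin rested on 150 to 326 reads per library, so that counting error alone was up to 8.16% of a value, whereas Mbp rested on at least 36277 reads.

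Cldn11 and Ugt8a stand for the junctions and the lipids. Cldn11 encodes the claudin that makes the tight junctions between turns of the myelin spiral. Cldn11 had 1555, 1972 and 1718 normalized counts at day 28, against 2440, 2843 and 3040 at day 3. Its groups stood apart, and it had the smallest adjusted p of the 9 (log2 -0.67, SE 0.12, limma adjusted p = 0.0752). Ugt8a encodes the enzyme that makes galactosylceramide, the main glycolipid of myelin. Ugt8a had 810, 1130 and 1095 normalized counts at day 28, against 1264, 1454 and 1289 at day 3, with a log2 difference of -0.41 (SE 0.14, limma adjusted p = 0.242).

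**Figure D1:**
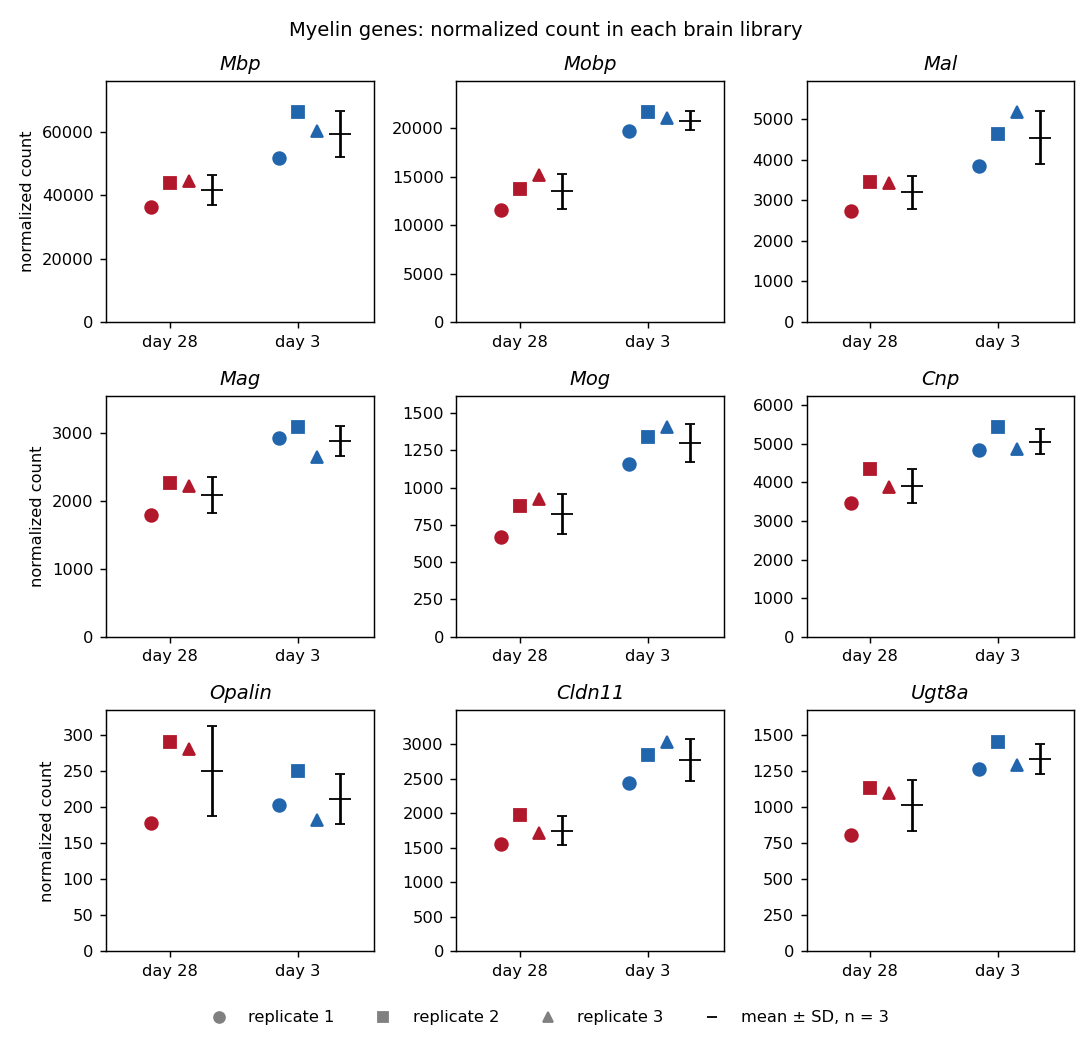
Normalized count (vertical axis, from 0) of each myelin gene in the 3 day 28 libraries (red, left) and the 3 day 3 libraries (blue, right), with the mean ± SD beside each group. For 8 genes the day 28 points all lie below the day 3 points, and for Opalin the groups overlap.

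With single libraries left out, Cldn11 (limma adjusted p = 0.0439) and Mobp (limma adjusted p = 0.0388) passed without day 3 replicate 3. Under that setting 623 of the 16162 genes tested passed, against 31 in the reported fit. With library weights Cldn11 was the only member to pass (limma adjusted p = 0.0382), and 69 of all genes tested passed. Over all 18 alternatives the adjusted p ran from 0.0382 to 0.386 for Cldn11 and from 0.0388 to 0.349 for Mobp. Without day 28 replicate 1, the library lowest in every member, the log2 difference of Ugt8a was -0.26. Mag, Mog, Cnp, Mal, Mbp, Ugt8a and Opalin passed under none of the 18.

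**Figure D2:**
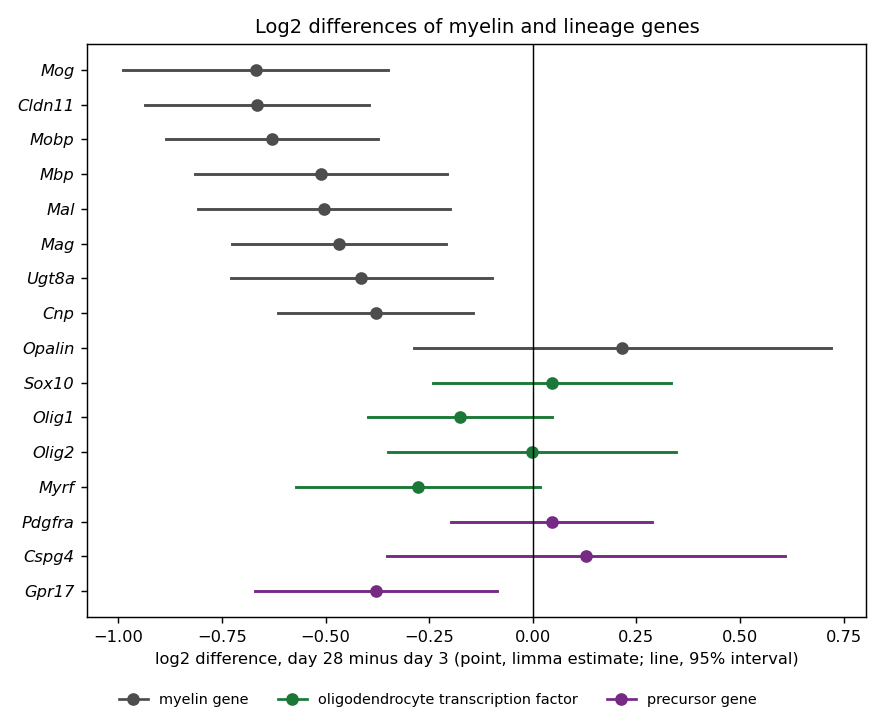
Limma log2 difference, day 28 minus day 3 (horizontal axis; point, estimate; line, unadjusted 95% interval), of the 9 myelin genes and of 7 lineage genes. Mog to Cnp lie between -0.67 and -0.38, Opalin at 0.22, and Sox10, Olig2 and Pdgfra within 0.05 of 0.

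Per kilobase of exon sequence, the order of the members was nearly the same at both days. The length used is the union of all annotated exons of a gene. It can exceed the length of the transcripts expressed, and by unlike amounts, so levels of different genes compare only roughly. Mbp was highest, at 4911 ± 551 normalized counts per kilobase at day 28 and 7008 ± 859 at day 3 (SD, n = 3 each). Mobp followed, at 1973 ± 261 at day 28 and 3037 ± 145 at day 3 (normalized counts per kilobase). Mal, Cnp and Cldn11 came next, and neighbours among these 3 overlapped in their library ranges at both days. Mag and Mog likewise overlapped with each other, while Ugt8a and then Opalin stood apart below them. Opalin was lowest, at 84.9 ± 21.3 normalized counts per kilobase at day 28 and 71.9 ± 11.7 at day 3. Exon lengths came from GENCODE M21, and the annotation behind the deposited counts was not given in the sources used here.

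Taking the 9 together, they held 0.415%, 0.502% and 0.517% of all reads in the day 28 libraries, against 0.640%, 0.738% and 0.686% in the day 3 libraries. Mbp made up 58.7% to 61.9% of those reads in every library. The mean log2 deviation of the members from their own 6-library means was -0.47, -0.09 and -0.11 at day 28, against 0.11, 0.33 and 0.23 at day 3. Day 28 replicate 1 was the lowest library and day 3 replicate 2 the highest, and the mean log2 difference between days was -0.45. Without day 28 replicate 1 it was -0.32.

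Among other genes of the lineage, 0 of 79 tested passed in limma, against 0.192% of all genes tested. The lists differed in how far they lay from the median of all genes (log2 -0.01). The members themselves had a median log2 difference of -0.50. Of 35 other genes of myelin and mature oligodendrocytes, 32 had a negative difference (median -0.29, and -0.17 without day 3 replicate 2). All day 28 libraries were lower for 13 of the 35, against 9.21% of all genes tested. The 4 with the smallest p were Plekhb1 (log2 -0.40, limma adjusted p = 0.0987), Ndrg1 (log2 -0.41, limma adjusted p = 0.134), Gsn (log2 -0.39, limma adjusted p = 0.159) and Pmp22 (log2 -0.49, limma adjusted p = 0.161). Plekhb1 encodes a pleckstrin-homology protein, Ndrg1 a stress-responsive protein needed by myelinating cells, Gsn the actin-severing gelsolin and Pmp22 a small membrane protein best known from peripheral myelin. At an unadjusted limma p under 0.05, 13 of the 35 were lower and 0 higher, against 6.39% and 6.98% of all genes tested.

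The lipid enzymes lay in the same direction. Of 15 tested, 12 had a negative difference, and the median log2 difference was -0.23. All day 28 libraries were lower for 6 of the 15, against 9.21% of all genes tested. Fa2h, which makes the 2-hydroxy fatty acids of myelin galactolipids and so works beside Ugt8a, had 618, 743 and 743 normalized counts at day 28, against 900, 1082 and 988 at day 3. The groups stood apart, with a log2 difference of -0.50 (SE 0.12, limma adjusted p = 0.132). Degs1 and Cers2, which make ceramides, had log2 differences of -0.31 and -0.42, and Gltp, a glycolipid transfer protein, of -0.47 (limma adjusted p = 0.211, 0.242 and 0.234). At an unadjusted limma p under 0.05, 6 of the 15 were lower and 0 higher, against 6.39% and 6.98% of all genes tested. Hmgcs1 and Sqle, of cholesterol synthesis, which also serves other brain cells, had log2 differences of 0.02 and -0.08.

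The lineage transcription factors lay nearer to 0 as a list. Of 14 tested, 8 had a negative and 6 a positive difference, with a median of -0.09. At an unadjusted limma p under 0.05, 2 of the 14 were lower and 1 higher, against 6.39% and 6.98% of all genes tested. Sox10 had 502, 669 and 584 normalized counts at day 28, against 575, 541 and 572 at day 3, so its groups overlapped (log2 0.05, unadjusted 95% interval -0.24 to 0.33). Olig2 had a log2 difference of -0.00 with an interval from -0.35 to 0.35, and Olig1 of -0.18 with an interval from -0.40 to 0.05. Myrf, the factor that keeps myelin genes on in mature cells, had 811, 939 and 964 normalized counts at day 28, against 1233, 1146 and 926 at day 3. Its groups overlapped through day 3 replicate 3 (log2 -0.28, interval -0.57 to 0.02).

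Zeb2, a repressor with roles in myelination that many other brain cells also express, was the member of this list with the smallest p. It had 2873, 2893 and 2751 normalized counts at day 28, against 2032, 1716 and 1875 at day 3, all higher at day 28, and missed the threshold (log2 0.60, SE 0.09, limma adjusted p = 0.0506). It passed under 6 of the 18 alternatives, and the adjusted p ran from 0.0212 to 0.314 over all of them. Sox8, a relative of Sox10, was also higher in each day 28 library (log2 0.26, limma adjusted p = 0.375). Zfp536 had a log2 difference of -0.43 and St18 of -1.10 (limma adjusted p = 0.333 and 0.343). St18, a zinc-finger gene, stood at 136, 178 and 183 normalized counts at day 28, against 620, 476 and 148 at day 3, where replicate 3 lay within the day 28 range.

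Set against Sox10, Olig1 and Olig2 in the same library, the members had a mean log2 level of -0.37, -0.20 and -0.03 at day 28, against 0.14, 0.19 and 0.27 at day 3, each as a deviation from its 6-library mean. The day 28 libraries were the 3 lowest, and day 28 replicate 3 lay closest to day 3. The planned comparison was against all 14 factors, of which these 3 are a part. Against the 14, the members stood at -0.31, -0.13 and -0.02 at day 28, against 0.03, 0.31 and 0.13 at day 3. Day 28 replicate 3 and day 3 replicate 1 thus lay close together. The mean log2 difference between days was -0.31 against the 14 factors, and ranged from -0.38 to -0.23 with single libraries left out. The median of the factor list itself turned to 0.02 without day 28 replicate 1. All of these are descriptions with no test.

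Precursor and newly formed oligodendrocyte genes were centred on 0. Of 15 tested, 7 had a negative and 8 a positive difference, with a median of 0.02. At an unadjusted limma p under 0.05, 3 of the 15 were lower and 1 higher, against 6.39% and 6.98% of all genes tested. Pdgfra, the growth factor receptor that marks precursors, had 809, 835 and 730 normalized counts at day 28, against 726, 736 and 839 at day 3, and its groups overlapped (log2 0.05, unadjusted 95% interval -0.20 to 0.29). Cspg4, a precursor proteoglycan, had a log2 difference of 0.13 with an interval from -0.35 to 0.61. Gpr17, a receptor of cells about to mature, was lower in each day 28 library (log2 -0.38, limma adjusted p = 0.249), as was Sirt2, a deacetylase carried in myelin (log2 -0.25, limma adjusted p = 0.252). Tmem163 had a log2 difference of -0.65 and Cspg5 of 0.40 (limma adjusted p = 0.235 and 0.309). The list's median ran from -0.09 to 0.09 with single libraries left out and was -0.15 with the cerebellar covariate described below, so its sign depends on the setting.

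**Figure D3:**
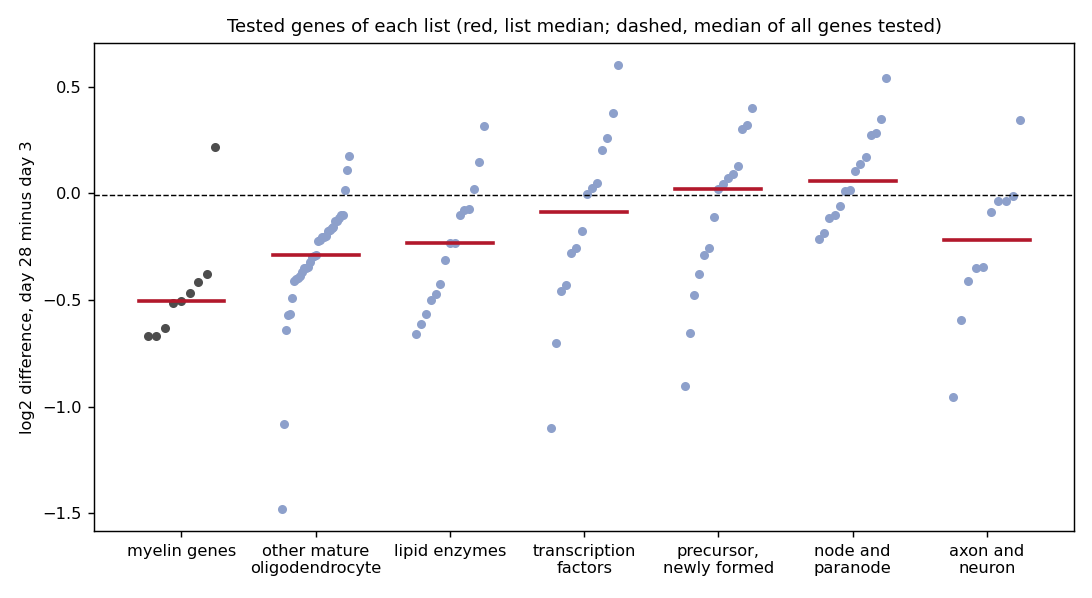
Limma log2 difference, day 28 minus day 3 (vertical axis), of each tested gene in 7 lists; red bars are list medians and the dashed line the median of all genes tested. Medians are -0.50 for the myelin genes, -0.29 and -0.23 for other mature oligodendrocyte and lipid genes, and -0.22 for axon and neuron genes. They lie between -0.09 and 0.06 for transcription factors, precursors and the node and paranode.

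On the axonal side, the 14 genes of the node and paranode, where myelin ends on the axon, had a median of 0.06 with 9 positive and 5 negative differences. Leaving out day 3 replicates 1, 2 and 3 in turn gave medians of 0.13, 0.03 and 0.03. At an unadjusted limma p under 0.05, 1 of the 14 was lower and 4 were higher, against 6.39% and 6.98% of all genes tested. Kcnq3 and Cntnap2, potassium channel and adhesion genes of axons, were higher in each day 28 library (log2 0.54 and 0.35, limma adjusted p = 0.126 and 0.159), as was Ank3, the node scaffold ankyrin-G (log2 0.28, limma adjusted p = 0.285). Kcna2, a potassium channel beside the paranode, was lower in each (log2 -0.22, limma adjusted p = 0.281). The neurofilament genes, which encode the struts of large axons, lay with the myelin genes instead. Nefh had 1092, 1513 and 1611 normalized counts at day 28, against 3155, 3113 and 1978 at day 3 (log2 -0.96, SE 0.20, limma adjusted p = 0.109). Nefm was also lower in each day 28 library (log2 -0.59, limma adjusted p = 0.117). The list of 10 axon and neuron genes that holds them had a median of -0.22, or -0.13 without day 28 replicate 1, while its pan-neuronal Snap25 and Syp had log2 differences of -0.04 and -0.04.

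Several lists of brain region markers also differed between the days. The 7 tested midbrain genes were at a mean log2 deviation of -1.16, -1.51 and -1.53 at day 28, against 1.38, 1.62 and 1.21 at day 3, so they parted the same libraries as the members did. Slc6a3, the dopamine transporter, stood at 3.99, 1.79 and 2.84 normalized counts at day 28, against 183, 188 and 190 at day 3. The 8 tested hindbrain and spinal genes were likewise lower in each day 28 library (-2.03, -1.87 and -1.39, against 4.06, 1.61 and -0.40). Striatal genes were higher in each (0.59, 0.23 and 0.30, against -0.65, -0.45 and -0.01), and so were olfactory bulb and neuroblast genes (1.57, 0.85 and 0.18, against -1.35, -1.14 and -0.10). Day 28 replicate 1, the library lowest in myelin transcripts, was the highest in striatal and olfactory bulb genes, but also the highest day 28 library in midbrain genes. Within day 3 the order was otherwise. Replicate 1, the day 3 library lowest in the members (0.11), was the lowest of all in striatal and olfactory bulb genes. It was also the highest in hindbrain and spinal genes. Forebrain cortex genes had deviations of 0.10, 0.23 and 0.09 at day 28, against -0.45, -0.15 and 0.18 at day 3. The part of brain region in the myelin values was not tested.

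Cerebellar genes did not follow the same split. Their mean log2 deviations were -1.81, -1.94 and 0.34 at day 28, against 2.69, 2.55 and -1.83 at day 3. Day 3 replicate 3 was as low in cerebellar transcripts as day 28 replicates 1 and 2. Between those 3 libraries, day 28 minus day 3, the log2 difference was -0.88 for Mog, -0.80 for Cldn11, -0.75 for Mal and -0.74 for Mobp. It was -0.59 for Mbp, -0.43 for Ugt8a, -0.39 for Mag, -0.33 for Cnp and 0.32 for Opalin. This contrast rests on a single day 3 library, and the libraries were not alike in other regions. Midbrain genes were at -1.16 and -1.51 against 1.21 in day 3 replicate 3, and hindbrain and spinal genes at -2.03 and -1.87 against -0.40. With the cerebellar deviation as a covariate, the limma log2 difference was -0.69 for Mog, -0.76 for Cldn11 and -0.59 for Mobp. None of the 9 passed, and 2 of all 16162 genes tested did.

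**Figure D4:**
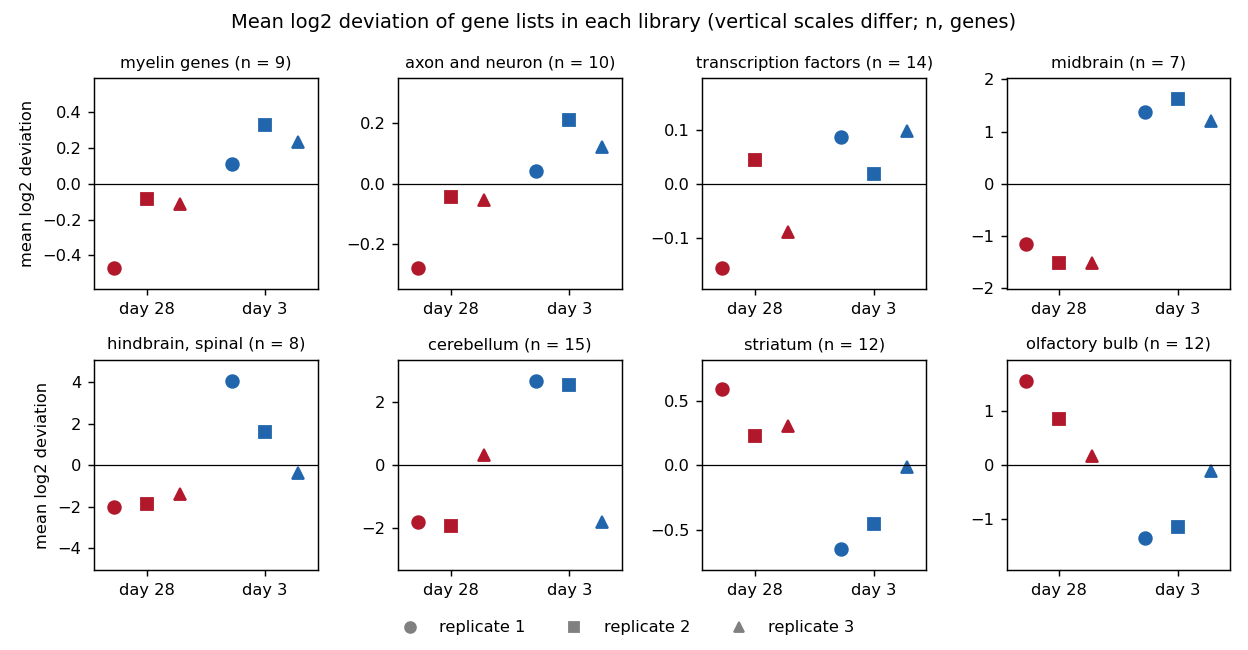
Mean log2 deviation from the 6-library mean (vertical axis, scales differ between panels) of 8 gene lists in each day 28 library (red, left) and day 3 library (blue, right). Myelin, midbrain and hindbrain lists are lower in all day 28 libraries and striatal and olfactory bulb lists higher, while the cerebellum list in day 3 replicate 3 is as low as in day 28 replicates 1 and 2.

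Defining markers of Schwann cells, which make the myelin of peripheral nerves, were nearly absent. Of 10 Schwann cell genes, Pmp2, a fatty acid-binding protein of peripheral myelin, was at 0 reads in all 6 libraries and Prx, which encodes periaxin, had 1 to 3 reads in each, against 36277 or more of Mbp. The summed level of that list ran from 1504 to 1626 normalized counts at day 28 and from 907 to 1072 at day 3. Most of it was Drp2 (log2 0.54, limma adjusted p = 0.0762) and Egr2 (log2 1.98, limma adjusted p = 0.117), which brain cells also express and which were higher in each day 28 library. Of the 10 astrocyte genes 1 passed, against 0.192% of all genes tested. It was Aldoc, a glycolytic enzyme, which fell by 0.68 on the log2 scale (SE 0.09, limma adjusted p = 0.0345). The astrocyte list had a median log2 difference of -0.50, like that of the myelin genes, with 8 of 10 negative. At an unadjusted limma p under 0.05, 6 of the 10 were lower and 1 higher, against 6.39% and 6.98% of all genes tested. All day 28 libraries were lower for 4 of the 10 and higher for 1, against 9.21% and 9.71% of all genes tested. Gfap stood at 7777 normalized counts in day 3 replicate 1, against 2632 and 2593 in the other day 3 libraries. Aldh1l1 stood at 2176 in day 3 replicate 2, against 1283 and 937. The summed level of the astrocyte list was 67183 to 70452 normalized counts at day 28 and 69477 to 72980 at day 3. Its largest share was Slc1a2, a glutamate transporter that was higher in each day 28 library. The 10 microglia genes had a median of -0.13, and their summed level was 4951 to 5319 at day 28 and 4804 to 7772 at day 3, highest in day 3 replicate 1. Their part in the myelin values was not tested.

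Transcripts that can reflect sample quality also varied between libraries, though RNA quality itself was not measured here. The 15 long transcripts, a possible sign of RNA integrity, had deviations of 0.13, 0.06 and 0.18 at day 28, against 0.18, -0.35 and -0.20 at day 3. All 15 had a positive log2 difference, with a median of 0.21, and their part in the myelin values was not tested. Alb, which encodes the plasma protein albumin, had 65795 reads in day 3 replicate 2, against 23 to 1276 reads in each other library. The liver and blood list that holds it had a median log2 difference of -0.83, with 8 of 10 negative. Its red cell gene Alas2, an enzyme of haem synthesis, was lower in each day 28 library (log2 -1.33, limma adjusted p = 0.0917). So were the haemoglobin genes Hbb-bt (log2 -1.12, limma adjusted p = 0.138) and Hbb-bs (log2 -0.98, limma adjusted p = 0.169), near-identical copies between which reads are uncertain. The part of blood in the myelin values was not tested. In day 3 replicate 2 Trf, the iron carrier transferrin that oligodendrocytes and liver both make, stood at 17471 normalized counts, against 2713 to 5079 in the other libraries, so its log2 difference of -1.08 rests on that library. Without day 3 replicate 2 the members' mean log2 difference was -0.40. Glucocorticoid-responsive genes were lower in each day 28 library as well, with deviations of -0.46, -0.69 and -0.55, against 0.47, 0.67 and 0.55 at day 3. Of these 12 genes 10 had a negative difference. Past the threshold in limma were 6, all lower at day 28, against 0.124% of all genes tested. Among the 6 was Plin4, a lipid droplet protein (log2 -3.55, limma adjusted p = 0.00562). The part of glucocorticoid-responsive genes in the myelin values was not tested.

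The transcripts whose profile lay closest to the members' mean profile included 3 genes of the lists above. Closeness was the root mean square distance of centred log2 values over the 6 libraries, with a median of 0.36 over the 16153 genes compared. Fa2h was the closest, at 0.046, while Srprb was the third at 0.053, Pmp22 the fourth at 0.056 and Ndrg1 the sixth at 0.060. Srprb encodes a subunit of the receptor that docks ribosomes at the endoplasmic reticulum. Srprb had a log2 difference of -0.38 (limma adjusted p = 0.282). Among the members, Ugt8a lay closest to the mean profile, at 0.045, and Opalin farthest, at 0.364, a distance like that of the median gene.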

How the data were processed

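Polyadenylated RNA from 6 brain libraries was sequenced, 3 from day 28 and 3 from day 3. Per the labels' protocols, libraries were stranded and made from total RNA. The build was GRCm39 per the submitters' processing notes; the aligner, counting tool, strand setting and annotation are not given in the sources used here. The table the authors deposited holds log2 values: back on the linear scale and less 1, 100% of values were whole reads (tolerance 0.001) divided by the library's size factor, 0.822 to 1.12. Recovered totals ran from 11958137 to 16059196 reads.

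Testing covered 16162 of 56748 genes, those averaging 10 or more normalized counts, with limma 3.58.1 in R 4.3.3, with group as the only term, a variance trend, 4 residual degrees of freedom and two-sided Benjamini-Hochberg adjustment at 0.05. The design was written for such log2 values, and no count model was run beside voom. The pseudocount is 1, which understates changes of low genes. Symbols (15978 of those tested) and exon lengths came from GENCODE M21. The procedure was checked on simulated data. Libraries of a group differed far beyond sampling noise (chi-square over its degrees of freedom was 9.13 to 45.5), and each library counted as 1 sample. No batch is named in the labels.

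The members and lists were chosen with earlier results of these data known. Named genes were the 9 members, up to 4 genes of smallest p in the lineage lists, genes past the threshold and up to 2 per other list, cell type markers, and the 6 nearest profiles, of which 2 are not reported here. Further names were added with the values in view. Alternatives covered the pseudocount, filter, scaling, variance model, library weights, replicate block, a cerebellar covariate and leaving out libraries. Figures used matplotlib 3.10.9.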

Additional observations from a re-analysis of the deposited data

How the results depend on the processing

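All 162 recomputed differences of the 9 members, under 18 alternatives each, kept their sign. The members past the threshold numbered 0 in the reported fit, 1 with library weights and 0 to 2 with single libraries left out. Among the 79 other lineage genes the count was 0, and 1, Zeb2, with a pseudocount of 5, with no filter, with a minimum of 50 and with library weights; with single libraries left out it ran from 0 to 4 (Zeb2, Apod, Tmem163 and St18 without day 3 replicate 3). Over all genes, 31 passed, against 68 with no filter, 69 with library weights, 3 without the variance trend, 2 with the cerebellar covariate, 0 with voom and 0 without day 3 replicates 1 and 2, where the lone day 3 library is assumed to vary like the others; leaving out single libraries gave 1 to 623. The unadjusted counts with voom were 2113 and without those 2 libraries 1904, against 2161. For these counts the cause was not tested. The upper quartile scaling moved the median of all genes to 0.03, and the members' mean difference kept its sign. Same-numbered libraries correlated at 0.03, 0.13 and -0.06 in their deviations from the group means. Day 28 replicates 1 and 2 correlated best with the day 3 library of the same number, and day 28 replicate 3 with day 3 replicate 1 (0.16). With so few libraries these correlations cannot decide whether the replicate numbers mark a pairing, and the labels do not state it. The further number in each sample title lies nearest to that of the same-numbered replicate of the other day, but its meaning is not stated. With the replicate number as a block, 0 genes passed (2386 at an unadjusted p under 0.05), and 0 of the 9 members and 0 of the 79 other lineage genes. The members' mean difference ran from -0.52 to -0.32, and relative to the transcription factors from -0.38 to -0.23, with single libraries left out. Depth limits Opalin most.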
